A study of Danio rerio with 20 samples.

Results

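The 2 arms of miR-199, listed on the array as miR-199 and miR-199*, and its neighbour miR-214 were followed through dystrophin-mutant and wild-type zebrafish of 2 ages. The members were taken by name: 3 probes, dre-miR-199, dre-miR-199* and dre-miR-214, out of the 219 mature zebrafish microRNA probes of the array. Small RNA of whole fish of the TL strain was hybridised in 20 samples, each of them 1 dye channel (Cy3 or Cy5) of a 2-colour array. At 30 days post fertilisation (dpf) the groups were sapje and its wild type, SW, and sapje-like and its wild type, SLW, with 3 samples in each group. At 5 dpf the same 4 groups had 2 samples each. Both mutant lines carry a defect in dystrophin, the protein that ties the actin skeleton of the muscle fibre to the matrix outside it, and are used as models of Duchenne muscular dystrophy. The alleles are not named beyond sapje and sapje-like, RNA came from 10 fish per cohort, and nothing states that samples of a group were separate pools of fish. The p-values therefore measure the spread between these samples, which may be technical.

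A microRNA hairpin yields a strand from each of its arms, and either can be loaded into an Argonaute protein, which it guides to target messages mainly through bases 2 to 8, the seed. In mammals a miR-199 gene and miR-214 are made together from a transcript that runs antisense inside a dynamin gene, and in the mouse this transcript is needed for normal skeletal growth. In zebrafish miR-214 is known to adjust Hedgehog signalling in the somites and so the choice between slow and fast muscle fibres, and in mammals these microRNAs are studied in fibrosis and dystrophic muscle.

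The mature sequences that the probes read are shown with the seed in capitals, because they decide which related microRNAs a probe could also catch. They are copied from the deposited scanner files, 5′ to 3′, and were the same in all 20 of them.
dre-miR-199: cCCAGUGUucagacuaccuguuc
dre-miR-199*: uACAGUAGucugcacauugguu
dre-miR-214: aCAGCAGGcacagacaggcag
They are 23, 22 and 21 bases long, share no seed with one another, and differ from one another by 11 to 13 single-base edits. No other probe of the array carried any of these 3 seeds. The closest probes by start were 3 that share the first 7 bases of miR-199*, of which miR-101a was tested and miR-101b and miR-144 were not above background often enough.
dre-miR-101a: uACAGUACugugauaacugaag
dre-miR-144: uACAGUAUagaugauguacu
Both diverge after that start, at 9 and 10 edits from miR-199*. A RefSeq gene table of assembly GRCz12tu lists 3 miR-199 genes and 1 miR-214 gene. mir199-3a (older name dre-mir-199-1) and mir214a lie within the span of dnm3a with no gene between them, mir199-2a lies within that of dnm2a, and mir199-1a within the spans of dnm1a and rabepk. The mature probes cannot tell the 3 miR-199 genes apart. No coordinates are given, because the deposited files name no genome build.

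All 3 members were above background in 20 of 20 samples. Their scanner intensity was 2.04 to 48.3 times the median empty spot for miR-199, 10.7 to 482 times for miR-199* and 13.9 to 318 times for miR-214. The 12 spots of a probe varied with a median coefficient of variation of 6.86% for miR-199, 5.70% for miR-199* and 5.84% for miR-214. Levels are given as normalized log2 intensity, after background correction and quantile normalization. Quantile normalization hands out values by rank, and miR-199* ranked 3rd to 34th and miR-214 5th to 16th among the 219 probes, so several samples share an identical value and an SD can read 0.00. miR-199 ranked 27th to 66th. A level here orders samples for 1 probe and does not compare one probe with another. Ranges of groups are called separate or overlapping as a description. The share of all probes that separate in the same way is not given, so separation does not set a member apart. Which samples shared an array was inferred from the pattern over spots. The inference put a mutant and a wild type of the same cohort and age on each of 10 arrays. Each inferred array thus held 1 age, so every difference between the ages is one between arrays. If the ages were hybridised in separate runs, run and age cannot be told apart.

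2 samples at 30 dpf stood apart from their groups in a list of 4 gut and liver microRNAs (miR-122, miR-192, miR-194a and miR-194b). The list averaged 11.91 in sapje replicate 1, against 9.57 and 9.16 in the other sapje samples and 7.17 to 7.39 in wild type SW. It averaged 11.59 to 12.16 in the sapje-like samples and 11.85 in wild type SLW replicate 8, against 7.17 and 7.26 in the other wild type SLW samples. Results at 30 dpf are therefore given with and without sapje replicate 1 and wild type SLW replicate 8, an alternative chosen after seeing the data. Without these 2 samples the wild types lie at 7.17 to 7.39 on the list and the mutants at 9.16 to 12.16. Genotype and the level of this list then separate completely and cannot be told apart. In whole-fish RNA, fewer cells of a type and less RNA per cell cannot be told apart.

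Both arms of miR-199 read higher at 30 dpf than at 5 dpf in wild types, a comparison between inferred arrays. miR-199 read 10.70, 10.64 and 10.53 in wild type SW at 30 dpf, against 9.39 and 10.07 at 5 dpf. In wild type SLW it read 11.48, 11.23 and 10.40 at 30 dpf, against 9.64 and 9.34 at 5 dpf. Every wild-type sample of 30 dpf thus lay above every one of 5 dpf. Over both wild types miR-199 rose by 1.24 ± 0.22 on the log2 scale (standard error of the fit), which is 2.36-fold higher (limma, Benjamini-Hochberg adjusted p = 0.000275). This is a comparison in which 58.1% of the 167 tested probes changed, those higher making up 29.9% of all tested, so a call by itself does not set the member apart.

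miR-199*, the 3′ arm, read 13.64 in each of the 3 wild type SW samples at 30 dpf, against 11.10 and 11.96 at 5 dpf. In wild type SLW it read 13.94, 13.43 and 13.08 at 30 dpf, against 12.09 and 12.39 at 5 dpf. The ages did not overlap in either wild type, and the lowest value of all 20 samples was wild type SW replicate 1 at 5 dpf. It rose by 1.70 ± 0.20, or 3.25-fold (limma adjusted p = 7.01e-06). The authors' deposited table gives the same order of ages for this arm, with 10700 to 13000 in wild type SW at 30 dpf, against 2360 and 4440 at 5 dpf. Both arms kept their rise in wild types under each of 15 alternative settings, at 0.76 to 1.39 for miR-199 and 1.10 to 1.79 for miR-199*, and with any 1 sample left out.

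Tissue microRNAs moved with age in the same wild-type samples. The nervous system list averaged 7.78 in SW and 7.89 in SLW at 30 dpf, against 9.19 in SW and 9.38 in SLW at 5 dpf. miR-451, the 1 tested probe of the red blood cell list, averaged 10.8 in SW and 10.61 in SLW at 30 dpf, against 7.98 in SW and 8.05 in SLW at 5 dpf. The gut and liver list averaged 7.25 in SW and 8.76 in SLW at 30 dpf, against 9.34 in SW and 9.62 in SLW at 5 dpf, and the striated muscle list 12.29 in SW and 12 in SLW at 30 dpf, against 11.12 in SW and 11.88 in SLW at 5 dpf. In SLW at 30 dpf replicate 8 read 11.85 on the gut and liver list, against 7.17 and 7.26 in the other samples. On the striated muscle list it read 10.96, against 12.63 and 12.42, so these SLW means average unlike samples. The part of these tissue microRNAs in the age differences of the members was not tested.

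After quantile normalization miR-214 differed little between the ages in wild type SW and read higher at 30 dpf in wild type SLW. It read 12.94, 13.22 and 13.22 in wild type SW at 30 dpf, against 13.22 and 12.94 at 5 dpf. In wild type SLW it read 13.22, 13.22 and 12.94 at 30 dpf, against 12.22 and 12.67 at 5 dpf. The ages overlapped fully in SW and were separate in SLW. The joint rise of 0.37 ± 0.14, or 1.29-fold, passed (limma adjusted p = 0.032), but its direction depends on the scaling: it was -0.01 with cyclic loess, -0.18 with median scaling and -0.20 with loess within arrays. Median scaling moved the median of all tested probes by -0.27 in this comparison, and relative to that shift miR-214 differed by 0.09, miR-199 by 1.33 and miR-199* by 1.5. The call for miR-214 was lost without any 1 of 6 wild-type samples, which were SLW replicates 2 (0.34) and 5 (0.34) and SW replicates 3 (0.34) and 4 (0.34) at 30 dpf, and SLW replicate 1 (0.23) and SW replicate 2 (0.29) at 5 dpf.

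**Figure D1:**
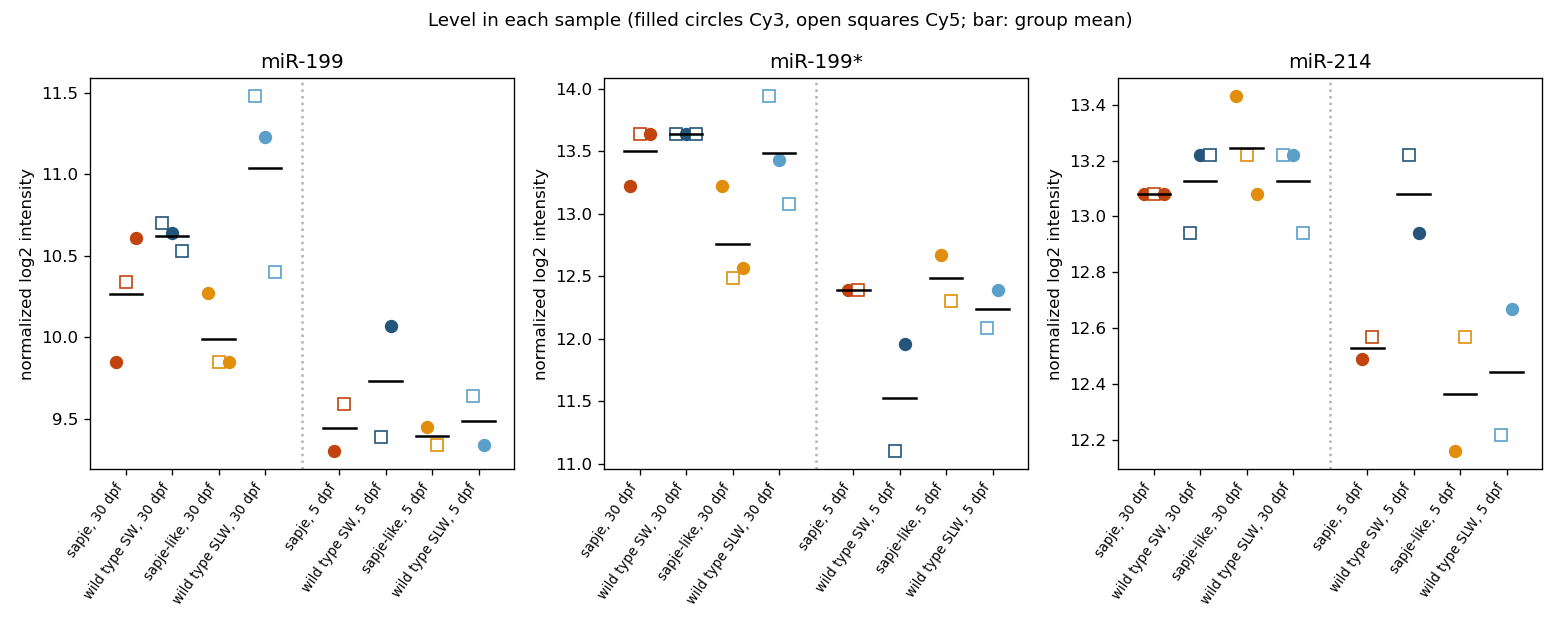
Normalized log2 intensity (y axis) of miR-199, miR-199* and miR-214 in each of the 20 samples, by group (x axis, 30 dpf left of the dotted line and 5 dpf right of it, each mutant left of its wild type). Filled circles are Cy3 channels, open squares Cy5 channels, and bars group means; wild type SLW at 30 dpf is highest for miR-199 at 11.04 and wild type SW at 5 dpf lowest for miR-199* at 11.53.

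In sapje the star arm and miR-214 passed as higher at 30 dpf than at 5 dpf, but both calls depended on the scaling and on single samples. miR-199* read 13.22, 13.64 and 13.64 in sapje at 30 dpf, against 12.39 in both samples at 5 dpf, a rise of 1.07 ± 0.29 (2.10-fold, limma adjusted p = 0.00991, with 35.3% of probes called in this comparison, 17.4% higher). miR-214 read 13.08 in each sapje sample at 30 dpf, against 12.49 and 12.57 at 5 dpf, a rise of 0.55 ± 0.19 (adjusted p = 0.0345 by limma) that read -0.29 with median scaling. That scaling moved the median of all probes by -0.50, and relative to it miR-214 differed by 0.21. miR-199 read 9.85, 10.34 and 10.61 in sapje at 30 dpf, against 9.30 and 9.59 at 5 dpf, and its difference of 0.81 ± 0.31 did not pass (limma adjusted p = 0.056). For each member the sapje samples of 30 dpf lay above those of 5 dpf. The call of miR-199* was lost with median scaling (0.16), with quantile normalization within each age (0.79), in the authors' deposited table (0.88), and without sapje replicate 2 at 30 dpf (0.91) or replicate 1 at 5 dpf (0.97). That of miR-214 was lost without any 1 of the 5 sapje samples, at 0.55 without each of the 3 of 30 dpf and at 0.50 and 0.60 without replicates 1 and 2 of 5 dpf. It was also lost with cyclic loess (0.49), quantile normalization within each age (0.24), loess within arrays (0.73) and normexp offset 10 (0.56). The same held for the authors' table (0.40) and a stricter detection filter (0.55). miR-199 passed without sapje replicate 1 at 30 dpf (1.03), without wild type SLW replicates 2 (0.80) or 8 (0.82) at 30 dpf, and without wild type SW replicates 1 or 2 (0.82 each) at 5 dpf.

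In sapje-like only miR-214 passed between the ages, among 32.3% of probes called, 15% higher. It read 13.43, 13.22 and 13.08 in sapje-like at 30 dpf, against 12.16 and 12.57 at 5 dpf, a rise of 0.88 ± 0.19 (1.84-fold, limma adjusted p = 0.00257). It was -0.03 with median scaling and 0.63 without sapje-like replicate 1 at 5 dpf, where the call was lost. miR-199 read 10.27, 9.85 and 9.85 in sapje-like at 30 dpf, against 9.45 and 9.34 at 5 dpf, a difference of 0.58 ± 0.31 (limma adjusted p = 0.162). miR-199* read 13.22, 12.49 and 12.57 in sapje-like at 30 dpf, against 12.67 and 12.30 at 5 dpf, and its 0.24 ± 0.29 was the smallest age difference of this arm (limma adjusted p = 0.572). The 2 ages overlapped for miR-199* and did not for miR-199 and miR-214. Neither arm's direction held under all scalings, with -0.07 for miR-199 and -0.50 for miR-199* under median scaling, which moved the median of all probes by -0.11. Whether the age differences of mutants and wild types differ is tested further on, as the change of the mutant effect between ages. That test takes both mutants together, and the age difference of sapje-like alone was not tested against another genotype.

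At 30 dpf miR-199 passed as lower in mutants over both cohorts and in sapje-like, but not in sapje. For miR-214 no such comparison passed. miR-199 read 9.85, 10.34 and 10.61 in sapje, against 10.70, 10.64 and 10.53 in wild type SW. It read 10.27, 9.85 and 9.85 in sapje-like, against 11.48, 11.23 and 10.40 in wild type SLW. All 3 sapje-like samples were below all 3 of wild type SLW, whereas sapje replicate 3 lay within the range of wild type SW. Over both cohorts miR-199 fell by 0.73 ± 0.20 (1.66-fold lower, limma adjusted p = 0.0317), 1 of 22 called probes (13.2%, of which 7.78% of all tested probes lower). In sapje-like alone it fell by 1.07 ± 0.28 (2.10-fold lower, limma adjusted p = 0.0299), where 8.98% of probes were called, 5.39% lower. In sapje alone the difference was -0.38 ± 0.28 (adjusted p = 0.663 by limma, with 1.2% of probes called).

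The lower miR-199 was present in each dye taken alone. Among Cy3 samples the mean was 10.15 in mutants and 10.94 in wild types (n = 4 and 2), and among Cy5 samples 10.10 in mutants and 10.78 in wild types (n = 2 and 4), with no overlap within a dye. The margins were narrow beside the residual SD of 0.34. The nearest mutant and wild type, pooled over cohorts, read 10.61 and 10.64 in Cy3 and 10.34 and 10.40 in Cy5. Over both dyes the mutants spanned 9.85 to 10.61 and the wild types 10.40 to 11.48. On the inferred arrays the mutant channel was lower in 5 of 6, from -1.38 to 0.08, the exception being sapje replicate 3. In the authors' deposited table the values were 727, 1080 and 1240 in sapje, against 1470, 1230 and 1120 in wild type SW, and 1080, 714 and 821 in sapje-like, against 2710, 2070 and 967 in wild type SLW. The direction held under every scaling and background correction tried, from -0.80 to -0.49 over both cohorts. All tested probes had a median of -0.19 in that table, and relative to it miR-199 differed by -0.55. The joint call did not hold with cyclic loess (-0.52), median scaling (-0.80), loess within arrays (-0.49), the authors' table (-0.74), each age fitted alone (-0.73) or only the groups compared (-0.73).

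The joint call was lost without sapje replicate 1 (-0.63), wild type SW replicates 2 (-0.70) or 3 (-0.74), sapje-like replicates 2 (-0.70) or 3 (-0.69), or wild type SLW replicates 2 (-0.62) or 5 (-0.67). The sapje-like call was lost without sapje-like replicates 2 (-1.02) or 3 (-0.99) or wild type SLW replicates 2 (-0.84) or 5 (-0.98). Without the pair that stood apart (sapje replicate 1, wild type SLW replicate 8), the joint difference was -0.77 (limma adjusted p = 0.00693). It was then -1.37 in sapje-like (adjusted p = 0.00158) and -0.16 in sapje (adjusted p = 0.995), both from limma. Leaving out the pair removes the only wild type of 30 dpf with a high gut and liver list. The smaller p-values therefore cannot tell genotype and that list apart.

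miR-199*, the other arm of miR-199, lay lower in sapje-like and close to wild type in sapje. It read 13.22, 13.64 and 13.64 in sapje, against 13.64 in every wild type SW sample. It read 13.22, 12.49 and 12.57 in sapje-like, against 13.94, 13.43 and 13.08 in wild type SLW, with sapje-like replicate 1 inside the range of SLW. None of its comparisons at 30 dpf passed: -0.49 ± 0.19 over both cohorts (limma adjusted p = 0.0936), -0.20 ± 0.26 in sapje (0.98), which read 0.03 with cyclic loess and 0.20 with loess within arrays, and -0.79 ± 0.26 in sapje-like (0.0657). The sapje-like difference passed with the inferred array as a random block (-0.79, limma adjusted p = 0.0436), without wild type SLW replicate 8 (-0.95), without sapje-like replicate 1 (-0.98), and without the pair that stood apart (-0.96, limma adjusted p = 0.0211). The joint difference passed without wild type SLW replicate 8 (-0.57). Over 16 alternative settings the joint difference ran from -0.63 to -0.11, with limma adjusted p up to 0.902. That in sapje-like ran from -0.96 to -0.41, with limma adjusted p up to 0.676. After quantile normalization no inferred array had this arm higher in the mutant channel at 30 dpf, 4 had it lower and 2 held equal values. The equal values were ties of rank on 2 sapje arrays. In the authors' table sapje read higher on both, 13800 against 13000 and 13900 against 10700. With median scaling they read 13.68 against 13.32 and 13.14 against 13.81.

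miR-214 read 13.08 in all 3 sapje samples at 30 dpf, against 12.94, 13.22 and 13.22 in wild type SW. It read 13.43, 13.22 and 13.08 in sapje-like, against 13.22, 13.22 and 12.94 in wild type SLW. Mutants and wild types overlapped in both cohorts, and the joint difference was 0.03 ± 0.12 with a 95% interval of -0.23 to 0.30 (limma adjusted p = 0.903). Under this scaling the interval lies above the miR-199 estimate of -0.73. The direct test of whether the 2 changed unequally, given further on, did not pass. Scaling moved the joint difference of miR-214, from -0.05 with median scaling to 0.35 with cyclic loess and 0.39 with loess within arrays. None of these values passed. In sapje alone the miR-214 difference was -0.05 ± 0.17, and 0.20 to 0.35 with the authors' table, cyclic loess and loess within arrays.

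**Figure D2:**
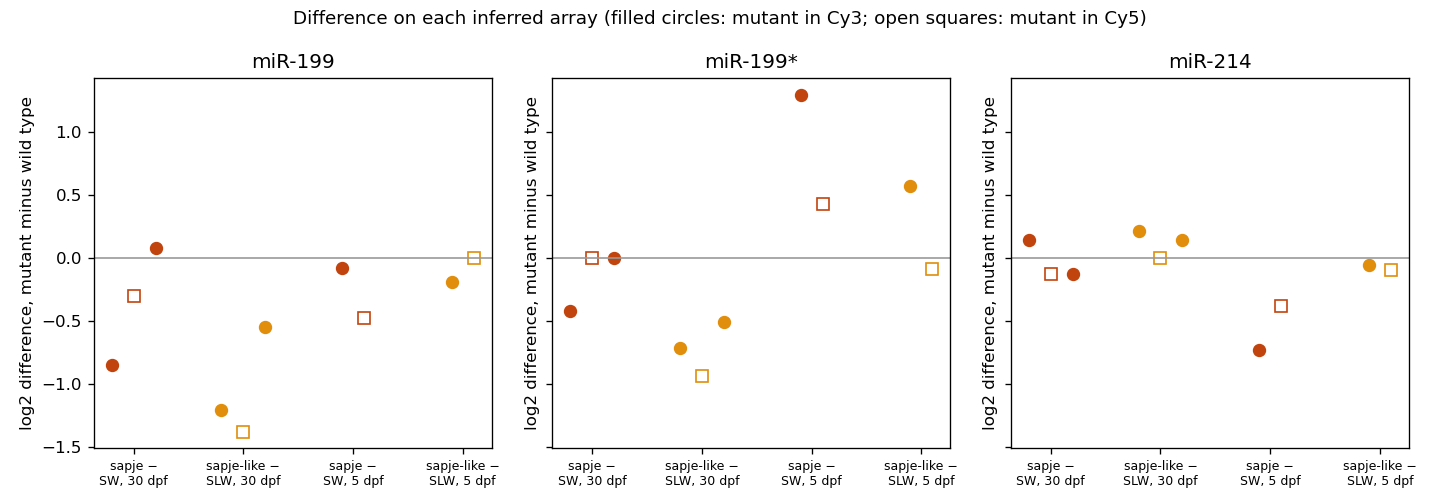
Log2 difference between the mutant and the wild-type channel (y axis) on each of the 10 inferred arrays, by cohort and age (x axis). Filled circles have the mutant in Cy3, open squares in Cy5; miR-199 at 30 dpf runs from -1.38 to 0.08, miR-199* from -0.94 to 0 and miR-214 from -0.13 to 0.21.

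At 5 dpf no member passed in any comparison of mutants with wild types, where 1.2% of probes were called jointly, 1.8% in sapje and 0.599% in sapje-like. miR-199 read 9.30 and 9.59 in sapje, against 9.39 and 10.07 in wild type SW, and 9.45 and 9.34 in sapje-like, against 9.64 and 9.34 in wild type SLW. Its joint difference was -0.19 ± 0.24 (limma adjusted p = 0.776). miR-199* read 12.39 in both sapje samples, against 11.10 and 11.96 in wild type SW, a difference of 0.86 ± 0.31 (limma adjusted p = 0.347). It read 12.67 and 12.30 in sapje-like, against 12.09 and 12.39 in wild type SLW, and the joint difference was 0.55 ± 0.22 (limma adjusted p = 0.429). The sapje and wild type SW ranges of this arm were separate, while the sapje-like and SLW ranges overlapped. With 2 samples in each group such a separation carries little weight.

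miR-214 at 5 dpf read 12.49 and 12.57 in sapje, against 13.22 and 12.94 in wild type SW, so the sapje samples were the lower pair (-0.55 ± 0.21, limma adjusted p = 0.356). In sapje-like it read 12.16 and 12.57, against 12.22 and 12.67 in wild type SLW, a difference of -0.08 ± 0.21 (limma adjusted p = 0.953). The joint difference was -0.32 ± 0.15 (limma adjusted p = 0.46). After quantile normalization the mutant channel was the lower one on 4 of 4 inferred arrays, by -0.73 to -0.06. With median scaling it was higher for replicate 2 of sapje (13.79 against 12.64) and of sapje-like (13.65 against 12.38). For replicate 1 it was lower there, at 12.52 against 14.04 and 12.11 against 13.31. The share of all probes lower on every array is not given. In the fitted differences of the sapje cohort at this age the star arm and miR-214 had opposite signs, and neither passed. Wild type SW was itself the extreme group for both: wild type SLW minus wild type SW was 0.71 ± 0.31 for miR-199* (limma adjusted p = 0.29) and -0.64 ± 0.21 for miR-214 (0.126), with 1.8% of probes called. Without wild type SLW replicate 2 the miR-214 difference between the wild types was -0.88 and passed (limma adjusted p = 0.0259). At 30 dpf the wild types differed by 0.41 ± 0.28 for miR-199, -0.15 ± 0.26 for miR-199* and 0.00 ± 0.17 for miR-214 (SLW minus SW), none of which passed, with 0.599% of probes called.

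The effect of the mutations on miR-199* passed as different between the ages, but the call was not stable. The mutant effect at 30 dpf minus that at 5 dpf was -1.04 ± 0.29 for miR-199*, a fitted test of the difference itself (limma adjusted p = 0.0481, with 7.78% of probes called, 4.79% lower). It combines a joint effect of -0.49 at 30 dpf with one of 0.55 at 5 dpf, neither of which passed alone, and the same contrast is the age difference of mutants minus that of wild types. The call sits at the threshold. It held without the pair that stood apart on the gut and liver list (-1.04, adjusted p = 0.0331 by limma), and was lost without any 1 of 15 of the 20 samples, with values from -1.11 to -0.83. The value of -0.83 was that without wild type SW replicate 1 at 5 dpf, the sample with the lowest miR-199*. It was also lost in 7 of 14 alternatives, among them cyclic loess (-0.77), loess within arrays (-0.63) and the authors' deposited table (-1.03). For miR-199 the same contrast was -0.54 ± 0.32 (limma adjusted p = 0.321) and for miR-214 0.35 ± 0.19 (0.289).

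**Figure D3:**
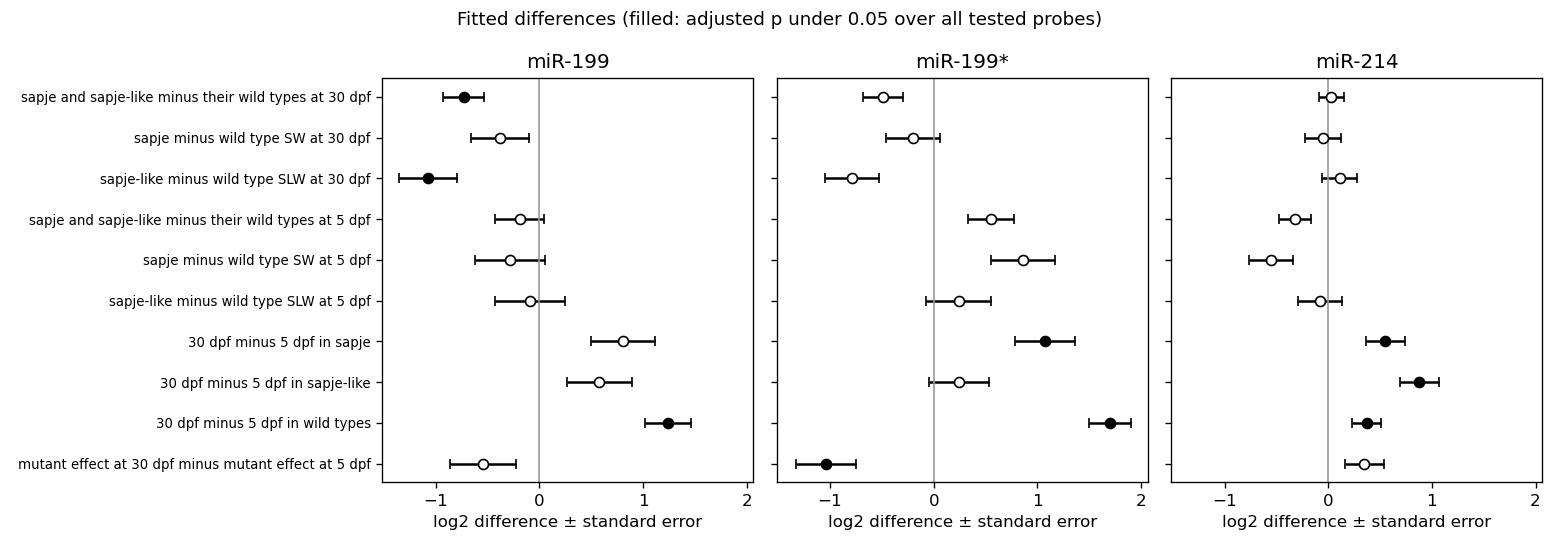
Fitted log2 differences with their standard errors (x axis) for each member in 10 comparisons (y axis). Filled points passed at an adjusted p under 0.05 over 167 probes: miR-199 at 30 dpf in mutants over both cohorts and in sapje-like, the age differences named in the text, and the change of the mutant effect of miR-199* between ages (-1.04).

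Whether the members changed unequally was asked with the within-sample difference between 2 members, mutants against wild types, by an exact two-sided permutation test within cohort. At 30 dpf miR-214 minus miR-199 ranged from 2.47 to 3.36 in mutants and from 1.74 to 2.69 in wild types. Its shift of 0.74 had an exact p of 0.02, or 0.06 adjusted over the 4 such tests, and did not pass. miR-199* minus miR-199 ranged from 2.64 to 3.36 in mutants and from 2.20 to 3.11 in wild types, with a shift of 0.27 (exact permutation p = 0.03, adjusted 0.06). These differences hold each probe's own brightness and only their shift between groups is read. The smallest p that 400 permutations at 30 dpf can give is 0.005. The miR-214 shift passed in the authors' table (0.83, exact permutation test, adjusted p = 0.04) and with cyclic loess (0.92, 0.03), and the star arm's shift passed with cyclic loess (0.36, 0.03). Over 8 alternative settings the star arm's shift ran from 0.02 to 0.36, with adjusted p up to 0.945 by the exact permutation test. The miR-214 shift ran from 0.57 to 0.92, with adjusted p up to 0.222 by the same test. Both shifts passed without sapje replicate 3, at 0.82 for miR-214 and 0.32 for miR-199*, and without wild type SLW replicate 8, at 0.85 and 0.33. At 5 dpf the shift was 0.74 for miR-199* minus miR-199 (exact permutation p = 0.111, adjusted 0.148). For miR-214 minus miR-199 it was -0.13 (0.889), and 36 permutations cannot give a p under 0.0556.

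The 2 mutants were not shown to differ from each other for any member. Set against the effect in sapje at 30 dpf, that in sapje-like differed by -0.69 ± 0.39 for miR-199, with a 95% interval of -1.54 to 0.16 (limma adjusted p = 0.698), -0.59 ± 0.36 for miR-199* (0.75) and 0.16 ± 0.24 for miR-214 (0.963). limma called 0 probes there, against 9 at an unadjusted p under 0.05, so sapje-like passing for miR-199 where sapje did not is no evidence of a difference. Without the 2 samples that stood apart the miR-199 contrast was -1.22 (limma adjusted p = 0.0588). At 5 dpf the same contrast was 0.19 ± 0.48 for miR-199, -0.62 ± 0.45 for miR-199* and 0.47 ± 0.29 for miR-214, none of which passed, with 0.599% of probes called.

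Ordered by fitted mean, miR-199 ran from 11.05 in SLW, 10.64 in SW, 10.25 in sapje and 9.98 in sapje-like at 30 dpf to 9.73 in wild type SW, 9.49 in wild type SLW, 9.45 in sapje and 9.40 in sapje-like at 5 dpf. Each neighbouring pair in that order overlapped in its samples. miR-199* ran from 13.67 in wild type SW, 13.51 in wild type SLW, 13.47 in sapje and 12.73 in sapje-like at 30 dpf to 12.48 in sapje-like, 12.39 in sapje, 12.24 in SLW and 11.53 in SW at 5 dpf. Only the last pair did not overlap, wild type SLW with 12.18 to 12.30 and wild type SW with 11.19 to 11.87 once the dye effect was removed. In this order of the star arm the mutants came after the wild types at 30 dpf and before them at 5 dpf. Sapje lay only 0.04 below wild type SLW at 30 dpf, with overlap. Sapje minus wild type SW there read 0.03 with cyclic loess, so the order depends on the scaling. miR-214 ran from 13.24 in sapje-like to 13.08 in wild type SW at 5 dpf over its 5 highest groups, which include all 4 of 30 dpf, and then from 12.53 in sapje to 12.36 in sapje-like at 5 dpf. The gap between the SW wild type and sapje at 5 dpf was the only one without overlap. These separations for miR-199* and miR-214 are between groups of 2 samples, and their share over all probes is not given.

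The 2 arms followed each other across samples at 30 dpf and not at 5 dpf. Pearson's r between miR-199 and miR-199* was 0.77 over the 12 samples at 30 dpf and -0.20 over the 8 samples at 5 dpf. miR-214 correlated with miR-199 at 0.10 and with miR-199* at -0.04 at 30 dpf. At 5 dpf miR-199* and miR-214 ran against each other (r = -0.84), with wild type SW lowest for the first and highest for the second. At 30 dpf 5 other probes reached 0.92 to 0.96 with miR-199 and 5 reached 0.87 to 0.95 with miR-199*. The 0.77 between the arms therefore does not set them apart from other probes. These are descriptions without a test. The samples share genotype, array partners and the rank-based scaling.

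The probes most like miR-199 at 30 dpf were miR-99 (r = 0.96), miR-100 (0.93), miR-181a (0.93), miR-133a* (0.92) and miR-140 (0.92), over 12 samples. Of these, miR-140 was above background in only 3 of the 20 samples. Its other arm miR-140*, above background in all 20, was not among the 5. Those most like miR-199* were miR-499 (0.95), miR-152 (0.89), miR-130c (0.89), miR-100 (0.87) and miR-20b (0.87). miR-214 had no close companion there, its best being miR-10a (0.65), miR-10d (0.59), miR-193b (0.58), miR-738 (0.54) and miR-130b (0.53). At 5 dpf, over 8 samples, miR-214 was instead close to miR-455 (0.95), miR-31 (0.94), miR-17a* (0.93), miR-456 (0.92) and miR-103 (0.89). At that age miR-199 was most like miR-19b (0.86), let-7b (0.86), miR-205 (0.82), miR-19d (0.79) and miR-100 (0.76). The star arm at 5 dpf was most like miR-200c (0.87), miR-26b (0.79), miR-338 (0.79), miR-192 (0.75) and miR-499 (0.75).

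Beside the lower miR-199 in mutants at 30 dpf, tissue microRNAs of the whole fish differed too. The 6 striated muscle probes averaged 11.09, 11.80 and 11.84 in sapje, against 12.39, 12.16 and 12.33 in wild type SW. They averaged 11.42, 11.48 and 10.95 in sapje-like, against 12.63, 12.42 and 10.96 in wild type SLW, where replicate 8 had the low value. Over the 12 samples at 30 dpf miR-199 correlated with this list at 0.84, miR-199* at 0.78 and miR-214 at 0.22. With the gut and liver list the values were -0.81, -0.78 and -0.02. With the 2 smooth muscle probes, miR-143 and miR-145, they were -0.57, -0.84 and 0.01. The share of these tissues in the miR-199 difference was not tested. The samples lowest in miR-199 at 30 dpf, sapje replicate 1 and sapje-like replicates 2 and 3, were among the 5 highest on gut and liver. At 5 dpf the striated muscle list lay between 11.07 and 12.25 and correlated with miR-199 at -0.14. The nervous system list lay between 7.5 and 8.14 and the cartilage list between 7.44 and 8.24 in all samples of 30 dpf, and they correlated with miR-199 there at 0.31 and 0.65. Of the 2 cartilage probes, miR-140 was above background in only 3 of the 20 samples. miR-451 of red blood cells was 9.24 to 10.2 in sapje, against 10.45 to 11.18 in wild type SW, with no overlap. It was 9.24 to 10.53 in sapje-like, against 10.27 to 11.1 in wild type SLW, and its correlation with miR-199 over the 12 samples was 0.55.

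**Figure D4:**
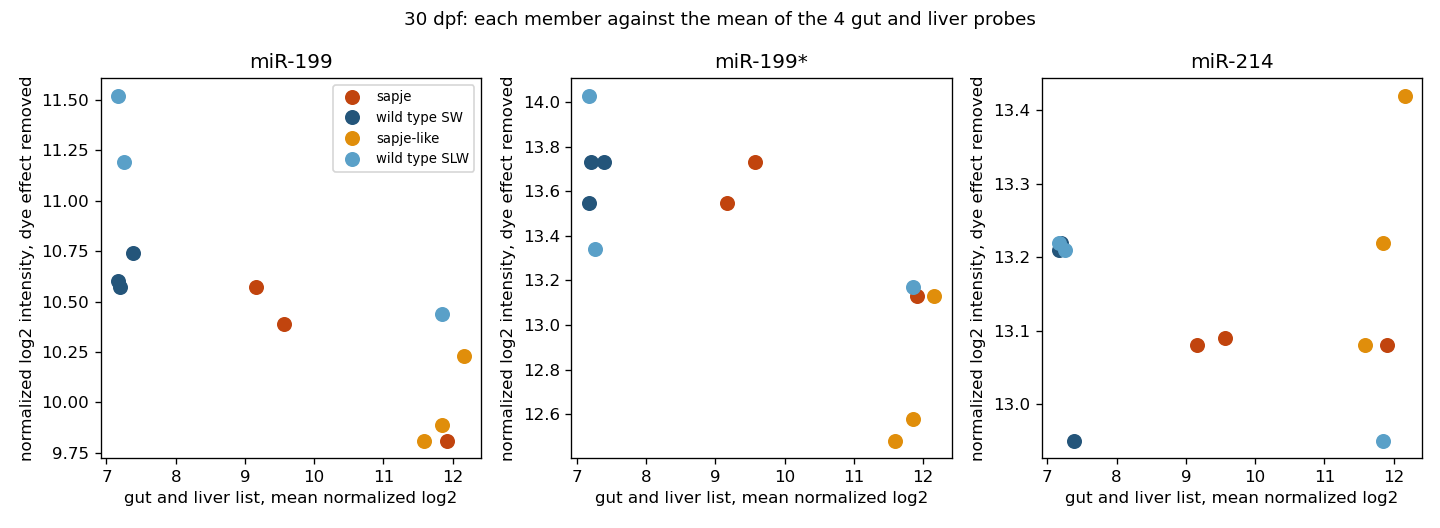
Normalized log2 intensity of each member with the dye effect removed (y axis) against the mean normalized log2 intensity of 4 gut and liver probes (x axis) in the 12 samples of 30 dpf, coloured by group. miR-199 and miR-199* are lower where the list is high (r = -0.81 and -0.78), with wild type SLW replicate 8 among the mutants at 11.85 on the list, and miR-214 shows no slope (r = -0.02).

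Of 9 other microRNAs listed as known from mesenchyme and fibrosis in mammals, 8 are on the array and 7 were tested. Jointly at 30 dpf 1 rose and 0 fell in mutants, with a median difference of -0.02, against -0.06 over all tested probes, of which 13.2% were called. The one that rose was miR-21, a microRNA studied in injury and fibrosis, by 0.62 ± 0.13 at 30 dpf (limma adjusted p = 0.0133) and by 1.61 ± 0.16 at 5 dpf (1.76e-05). miR-145 differed by 0.77 ± 0.27 at 30 dpf (adjusted p = 0.0762 by limma), miR-455 by -0.36 ± 0.15 (0.123) and miR-140 by -0.14 ± 0.08 (0.285). Between the ages in wild types 1 rose, miR-21 by 1.44 ± 0.15, and 2 fell, miR-140* by 0.96 and miR-145 by 0.87, with a list median of -0.12, against 0.03 over all probes, of which 58.1% were called.

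Of 10 microRNAs known to be raised in dystrophic or regenerating mammalian muscle, all tested, 2 rose and 0 fell in mutants at 30 dpf, with a median of 0.07, against -0.06 over all probes and 13.2% of them called. These were miR-146b, of a family that dampens innate immune signalling (1.91 ± 0.30, limma adjusted p = 0.00216), and miR-21. miR-31 differed by 0.56 ± 0.24 (adjusted p = 0.129 by limma) and miR-146a by 0.66 ± 0.38 (0.285). Between the ages in wild types 4 of the 10 rose and 1 fell, with a median of 0.38, against 0.03 over all probes, 58.1% of which were called. miR-223, a myeloid microRNA, rose by 1.99 ± 0.25 (limma adjusted p = 1.16e-05) and miR-146a by 2.49 ± 0.41 (0.000155), while miR-34 fell by 1.11 ± 0.22 (0.0005). Neither list is independent evidence about the members, since both were drawn up with earlier results of these data known.

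**Figure D5:**
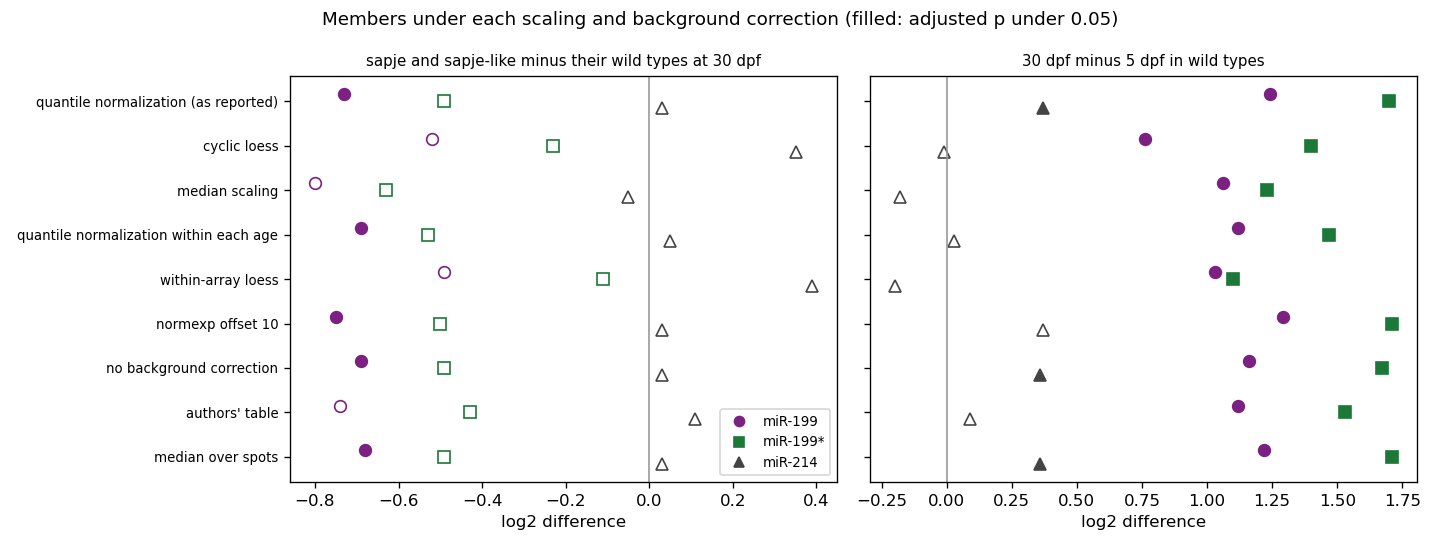
Log2 difference of each member (x axis) in mutants minus wild types at 30 dpf and in wild types at 30 minus 5 dpf, under 9 scalings and background corrections (y axis). Filled points passed at an adjusted p under 0.05; the rise of both miR-199 arms with age passed in each of the 9, miR-199 in mutants was below 0 in each, and miR-214 with age ran from -0.20 to 0.37.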

How the data were processed

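Each deposited scanner file gives the mean intensity of every spot in 1 dye channel, per the file headers; the authors' table holds 1 linear intensity per probe and sample, with background correction, scaling and centring not given in the sources used here. Column medians of that table were 95.3 to 144, and its log2 values correlated with the scanner values at 0.912 to 0.989 per sample, so its direction is settled. Each file has 3968 spots, 12 for each of 219 probes, and 1048 empty ones. RNA handling followed the labels' protocols (miRVana extraction, size selection, poly(A) tailing).

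From the scanner values, background was corrected by normexp (offset 50), log2 values were averaged over the 12 spots, and samples were quantile normalized. Detection in a sample needed a probe mean over the median empty spot plus 3 scaled median absolute deviations; detection in 2 or more samples of any group qualified a probe for testing, which kept 167. limma 3.58.1 in R 4.3.3 was fitted to 8 groups plus the dye (11 residual and 2.48 prior degrees of freedom), with Benjamini-Hochberg adjustment over 167 probes per comparison, a threshold of 0.05 and standard errors of the fit. Within-sample differences were tested by exact permutation. The fit was also run on simulated data, whose outcome is not given here and on which no result rests. Figures used Python 3.11.15 and matplotlib 3.10.9.

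Arrays were inferred from spot deviations over 396 spots of 33 bright probes, matched one to one (correlation 0.413 to 0.857). 18 of 20 samples were mutual best partners, and sapje replicate 1 and wild type SW replicate 2 at 30 dpf were matched as the remaining pair; the brightness limit and the matching were chosen after seeing these correlations. The median empty spot was 282 to 572 for Cy3 samples and 32.3 to 47.2 for Cy5 samples, and 105 to 173 probes were detected per sample. Precision is limited by the number of arrays. Named probes are the members, the 5 most correlated probes per age, and at most 4 members of each list in order of p. The members and lists were chosen with earlier results of these data known. Alternatives were other scalings, background corrections, filters, spot summaries, dye and block terms, fits on fewer samples, and each sample left out.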

Additional observations from a re-analysis of the deposited data

Results flagged for a closer look

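For miR-199* the effect of the mutations at 30 dpf minus that at 5 dpf was -1.04 (limma adjusted p = 0.0481), from -0.49 at 30 dpf and 0.55 at 5 dpf. Neither of the 2 effects passed alone. The call was lost without any 1 of 15 of the 20 samples and in 7 of 14 alternatives. After quantile normalization mutant channels were lower on 4 and higher on 0 of 6 inferred arrays at 30 dpf, and lower on 1 and higher on 3 of 4 at 5 dpf. The remaining arrays of 30 dpf were ties of rank in the sapje cohort, where the authors' table has sapje higher. No test for an outlying sample was run within groups of 2 or 3. The 2 samples set apart at 30 dpf were picked from their gut and liver values, with no test.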

How the results depend on the processing

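46 differences were recomputed under up to 16 alternatives: 610 values kept direction and call, 37 lost the call, 10 gained it and 32 changed sign. Over 920 fits without 1 sample, 40 lost a call, 13 gained one and 15 changed sign. A value that changed sign was counted only as such, also where its call was lost, so the counts of lost calls leave these out. A value of 0.00 was taken to have no direction. Causes were not tested, except that fewer samples or probes enter some settings.

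At 30 dpf jointly, miR-199 was not called with cyclic loess (-0.52), median scaling (-0.80), loess within arrays (-0.49), the authors' table (-0.74), each age alone (-0.73) or only the compared groups (-0.73), and spanned -0.86 to -0.62 without 1 sample. In sapje-like these gave -0.79, -1.18, -0.75, -1.09, -1.08 and -1.13, and -1.37 to -0.84. miR-199* without 1 sample spanned -0.59 to -0.38 jointly and -0.98 to -0.54 in sapje-like, where the array block gave -0.79 and omission of both samples that stood apart, chosen after seeing the data, -0.96. Under the alternative settings miR-199* spanned -0.63 to -0.11 jointly and -0.96 to -0.41 in sapje-like. In sapje it was 0.03 with cyclic loess and 0.20 with loess within arrays. miR-214 was -0.05 with median scaling and -0.01 without both samples jointly (-0.01 to 0.07 without 1), 0.29, 0.35 and 0.20 in sapje with cyclic loess, loess within arrays and the authors' table (-0.13 to 0.01), and -0.02 in sapje-like with median scaling.

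At 5 dpf, median scaling gave 0.14 for miR-199 jointly, 0.33 in sapje, and 0.04 for miR-214 in sapje-like. Without 1 sample, miR-199 spanned -0.62 to 0.06 in sapje and -0.31 to 0.12 in sapje-like, and miR-214 -0.32 to 0.16 in sapje-like.

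Between ages in wild types, miR-214 was -0.01, -0.18 and -0.20 with cyclic loess, median scaling and loess within arrays, and lost its call with normalization within age (0.03), offset 10 (0.37), the authors' table (0.09), the stricter filter (0.37) and only the compared groups (0.38). It spanned 0.23 to 0.48 without 1 sample. In sapje it was -0.29 with median scaling and uncalled at 0.49, 0.24, 0.73, 0.56, 0.40, 0.55 and 0.55 with cyclic loess, normalization within age, loess within arrays, offset 10, the authors' table, the stricter filter and both samples omitted (0.50 to 0.60). In sapje-like it was -0.03, 0.01, 0.54 and 0.90 with median scaling, loess within arrays, the authors' table and only the compared groups (0.63 to 1.10). miR-199* in sapje was uncalled at 0.16, 0.79 and 0.88 with median scaling, normalization within age and the authors' table (0.91 to 1.24), and in sapje-like was -0.50, -0.11 and -0.43 with median scaling, normalization within age and loess within arrays. miR-199 passed in sapje with the spot median (0.82), no dye term (0.82) and both samples omitted (1.03), spanned 0.59 to 1.03, and in sapje-like was -0.07 and -0.04 with median scaling and loess within arrays.

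The change of the miR-199* effect between ages was uncalled with cyclic loess (-0.77), loess within arrays (-0.63), offset 10 (-1.05), the authors' table (-1.03), no filter (-1.04), the stricter filter (-1.04) and no dye term (-0.98), and spanned -1.21 to -0.83. The sapje-like minus sapje effect was -0.17 for miR-214 at 30 dpf in the authors' table. For miR-199 at 5 dpf it was -0.16, -0.38, -0.01 and -0.03 with cyclic loess, median scaling, loess within arrays and the authors' table (-0.15 to 0.52). SLW minus SW at 30 dpf was -0.43 for miR-199 with loess within arrays and 0.02 for miR-199* with both samples omitted (-0.42 to 0.02). At 5 dpf it was 0.09, 0.26 and 0.45 for miR-199 with cyclic loess, median scaling and loess within arrays (-0.57 to 0.10), and spanned -0.88 to -0.39 for miR-214. Within samples at 30 dpf, miR-199* minus miR-199 passed with cyclic loess (0.36; 0.21 to 0.33 without 1 sample) and miR-214 minus miR-199 with cyclic loess (0.92) and the authors' table (0.83; 0.63 to 0.85). The lowest values over the alternative settings were 0.02 for miR-199* minus miR-199 and 0.57 for miR-214 minus miR-199, neither of which passed. At 5 dpf miR-214 minus miR-199 was 0.02 with cyclic loess (-0.37 to 0.11).

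Same-numbered samples correlated at 0.513 and 0.393 at 5 dpf and at -0.209, -0.149 and -0.0139 at 30 dpf, so the numbers do not pair the samples throughout, although at 5 dpf each same-numbered pair also shared an inferred array. The replicate block brought calls for miR-199* at 30 dpf jointly (-0.53) and in sapje-like (-0.89), and moved the joint count of called probes to 34, against 22. That count was 8 with each age alone or only the compared groups and 9 with loess within arrays. In sapje-like at 30 dpf 0 to 37 probes were called, against 15, and for the change between ages 0 to 29, against 13. Without 1 sample these 3 counts were 12 to 42, 0 to 34 and 0 to 22. Comparisons with 3 or fewer called probes had 0 to 18 under the alternative settings and 0 to 28 without 1 sample. Signal over background was lowest for miR-199.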
